A study of Mus musculus with 3 samples.

Results

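In mouse islets exposed to inflammatory cytokines, 5697 H3K4me1 enriched regions lay beside the transcription start site (TSS) of a protein-coding gene without covering any such TSS. They were chosen by position alone from the mm9 list of enriched regions on chromosomes 1 to 19. A region was taken if it contained no TSS of a protein-coding gene, counting all GENCODE M1 transcripts, and if its midpoint was within 2000 bp of one. The 5697 flanking regions were 8.75% (95% interval 8.53 to 8.97%) of the 65124 regions on these chromosomes, out of 65709 in the list. A further 9052 regions covered a protein-coding TSS and 50375 were neither. Intervals here and below are exact binomial (Clopper-Pearson) intervals and cover counting error only. Because neighbouring regions, alternative TSS of 1 gene and genes that start close together are not independent, the intervals are narrower than the true uncertainty.

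The islets came from CD1 mice aged 8-12 weeks by the labels, whereas the methods name ICR mice and a narrower age range. They were cultured over 4 days with TNFα at 0.16 ng/ml, IL-1β at 0.25 ng/ml and IFNγ at 1.6 ng/ml. Chromatin was immunoprecipitated with an antibody to H3K4me1, and DNA from separate ChIP experiments was pooled into 1 library, so no replicate spread exists and no difference between conditions was tested. The list gives only positions, on a grid of 200 bp, so the depth and the enrichment of each region are unknown. Untreated islets and the RNA-seq samples were not analysed here. Whole islets hold several cell types, and a mark from few cells cannot be told apart from a weak mark in many. Of 10 islet markers, 2 had a covered TSS (Ins2 and Slc2a2), 2 were flanked (Ins1 and Nkx6-1), 3 had the edge of a wider region within 2000 bp (Pdx1, Mafa and Chga) and 3 had none (Gcg, Sst and Iapp). Of 8 endothelial and stromal markers 5 were covered and none was flanked, of 9 exocrine markers 3, all of duct cells (Sox9, Krt7 and Krt19), were covered and none was flanked, and of 11 leukocyte markers 1 was covered (Cd68) and 1 flanked (Cd14). The part of these other cells in the flanking regions was not tested.

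H3K4me1 is the monomethylated form of lysine 4 of histone H3. It is deposited by the MLL and SET1 enzymes of the trithorax group and is typical of enhancers and of the edges of promoters. At active promoters, which often lie in CpG islands, nucleosomes next to the TSS carry the trimethylated form instead, and H3K4me1 is then found on either side. A CpG island is a stretch in which the dinucleotide CG is not depleted as it is in most of the mammalian genome. A TSS is called CpG-rich here where the 1000 bp centred on it had a CpG observed/expected ratio of at least 0.6 and a GC content of at least 50%. H3K4me3 was not analysed here.

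The reference sequence at a few of these TSS shows what lay in the gap between flanking regions and what lay under them. Wdr5, a shared subunit of the MLL and SET1 complexes, is a plus-strand gene (ENSMUSG00000026917.9, chr2:27370677-27392055). Its TSS lay in a gap of 800 bp (chr2:27370401-27371200) between a 1000 bp region upstream (chr2:27369401-27370400), outside any protein-coding gene, and a 1400 bp region in a Wdr5 intron (chr2:27371201-27372600). Bcl10, an adaptor that carries receptor signals to NF-kB, is also on the plus strand (ENSMUSG00000028191.9, chr3:145587322-145597247). Its TSS lay in a gap of 1400 bp (chr3:145586601-145588000) between a 1000 bp region upstream (chr3:145585601-145586600) and a 2200 bp region in a Bcl10 intron (chr3:145588001-145590200). For both genes, 140 bases are printed from 120 bp before the TSS to base 20 of the transcript, and 140 bases at the midpoint of each flanking region, all on the plus strand of mm9. Rpl31, a ribosomal protein gene, and Nsf, the ATPase that recycles SNARE proteins after vesicle fusion, are shown as other TSS flanked on both sides. Ins1, an insulin gene, is shown as a TSS flanked on its downstream side only and with little CpG. Capitals mark CpG dinucleotides.
Wdr5 upstream flank: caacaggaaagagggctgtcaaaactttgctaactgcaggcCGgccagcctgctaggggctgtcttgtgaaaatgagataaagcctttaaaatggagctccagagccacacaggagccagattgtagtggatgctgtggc
Wdr5 TSS: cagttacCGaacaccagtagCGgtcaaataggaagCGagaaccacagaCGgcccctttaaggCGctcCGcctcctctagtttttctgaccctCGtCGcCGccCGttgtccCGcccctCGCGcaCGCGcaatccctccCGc
Wdr5 downstream flank: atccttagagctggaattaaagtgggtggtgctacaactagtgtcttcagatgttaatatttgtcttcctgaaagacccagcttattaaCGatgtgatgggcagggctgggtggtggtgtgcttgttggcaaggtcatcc
Bcl10 upstream flank: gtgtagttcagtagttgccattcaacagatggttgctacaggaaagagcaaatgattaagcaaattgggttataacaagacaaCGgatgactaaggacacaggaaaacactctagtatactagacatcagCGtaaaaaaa
Bcl10 TSS: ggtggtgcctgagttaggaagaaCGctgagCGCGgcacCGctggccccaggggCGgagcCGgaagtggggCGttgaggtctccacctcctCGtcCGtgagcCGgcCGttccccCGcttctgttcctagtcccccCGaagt
Bcl10 downstream flank: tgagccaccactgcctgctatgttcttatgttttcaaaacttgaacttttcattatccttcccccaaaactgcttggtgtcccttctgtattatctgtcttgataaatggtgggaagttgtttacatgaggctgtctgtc
Rpl31 TSS: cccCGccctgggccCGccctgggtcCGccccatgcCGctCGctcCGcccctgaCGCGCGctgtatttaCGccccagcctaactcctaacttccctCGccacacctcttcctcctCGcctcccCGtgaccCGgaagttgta
Nsf TSS: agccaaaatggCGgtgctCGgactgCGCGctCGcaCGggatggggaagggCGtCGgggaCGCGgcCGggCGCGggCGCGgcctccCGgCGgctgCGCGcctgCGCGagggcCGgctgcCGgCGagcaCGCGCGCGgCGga
Ins1 TSS: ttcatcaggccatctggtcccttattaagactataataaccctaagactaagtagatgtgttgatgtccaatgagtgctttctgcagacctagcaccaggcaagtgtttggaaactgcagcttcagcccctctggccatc
The windows run over chr2:27369831-27369970, chr2:27370557-27370696 and chr2:27371831-27371970 for Wdr5, and over chr3:145586031-145586170, chr3:145587202-145587341 and chr3:145589031-145589170 for Bcl10. Those of Rpl31 (chr1:39424576-39424715) and Ins1 (chr19:52338693-52338832) are on the plus strand and that of Nsf (chr11:103815351-103815490) on the minus strand. The Wdr5 TSS window held 16 CpG, against 1 in each of its flanks. The Bcl10 TSS window held 13, against 2 upstream and 0 downstream. Rpl31 had 14, Nsf 29 and Ins1 0. The windows of Bcl10 and Rpl31 also held CCGGAAG, the core of the sequence that ETS-family factors bind.

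The flanking regions fell on both sides of the TSS, with more of them downstream. Read on the strand of the closest TSS, 2607 regions (45.8%, 44.5 to 47.1%) were upstream and 3090 (54.2%) were downstream. This balance depended on the distance rule. With a limit of 1000 bp the upstream share was 58.4%, and with distance taken from the nearest edge it was 38.8%. Of the 5697 regions, 747 (13.1%) were upstream of 1 TSS and downstream of another within the limit, and for 120 (2.11%) the closest TSS was itself covered by another region.

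Upstream regions sat closer to the TSS and were narrower than downstream regions. The nearest edge was a median of 445 bp (quartiles 218 and 764.5 bp) from the TSS on the upstream side and 632 bp (334.2 and 928) on the downstream side. Edges within 200 bp of the TSS, about the precision of the grid, made up 22.8% (21.2 to 24.5%) of upstream and 15.2% (13.9 to 16.5%) of downstream regions. The most frequent edge distance was under 200 bp upstream (595 regions) and 600 to 800 bp downstream (570 regions). Median widths were 800 bp upstream and 1000 bp downstream. Regions covering a TSS had a median width of 2400 bp and the remaining regions 1200 bp, but the rule itself keeps flanking regions under 4000 bp, since a wider region with its midpoint within 2000 bp would contain the TSS. Counts did not change sharply at the limit. Midpoints 1900 to 2000 bp from a TSS belonged to 265 regions and those 2000 to 2100 bp away to 259, each group with a median width of 1800 bp.

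**Figure D1:**
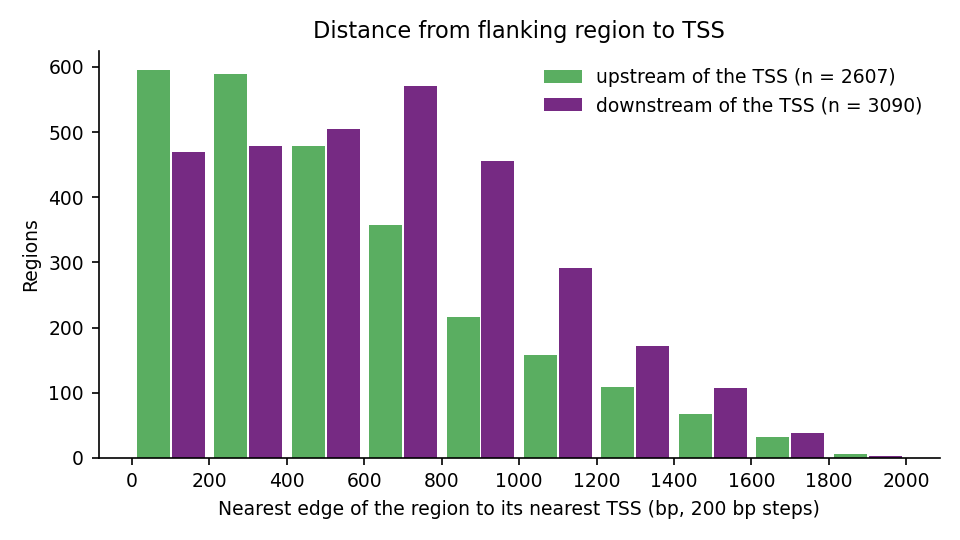
Number of flanking regions (y axis) by the distance from the region's nearest edge to its nearest protein-coding TSS (x axis, bp, steps of 200 bp), for the 2607 upstream (green) and 3090 downstream (purple) regions. Upstream regions are most frequent in the steps under 400 bp, and downstream regions in the step from 600 to 800 bp.

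Most flanking regions on the downstream side were intronic. Of the downstream regions 98.7% overlapped the gene of their nearest TSS, 55% (53.2 to 56.7%) lay in introns with no exon of a protein-coding gene, and 35.1% reached coding sequence. Of the upstream regions 34.4% (32.5 to 36.2%) overlapped a protein-coding gene. For 25.4% the overlap was with the gene of the nearest TSS itself, where another TSS of that gene lay further upstream. The DNA under the flanking regions was poor in CpG. In the 300 bp at the midpoint, the median CpG observed/expected ratio was 0.278 upstream, 0.256 downstream, 0.417 in regions covering a TSS and 0.2 in the remaining regions. TSS of genes that are not protein-coding lay in 91 flanking regions (1.60%), 64 of them TSS of long non-coding genes.

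The flanked genes were then counted, each placed once. Of 21418 protein-coding genes, 8702 (40.6%) had at least 1 covered TSS. A further 3781 (17.7%) had no covered TSS but at least 1 TSS with a flanking region, against 1787 with midpoints within 1000 bp. Of these, 669 genes (3.12% of all) had a TSS flanked on both sides, 1296 (6.05%) were flanked upstream only, 1617 (7.55%) downstream only, and 199 (0.929%) had an upstream flank at 1 TSS and a downstream flank at another. Of the covered genes, 1231 (14.1%) also had an uncovered, flanked TSS. For 577 of the 669 genes flanked on both sides (86.2%), the flanked TSS was the most upstream of the gene.

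A gene flanked on 1 side could still have a region on its other side that the rule leaves out, because its midpoint is too far away or because it holds another protein-coding TSS, and this differed by side. Among genes flanked upstream only, 570 (44.0%, 41.3 to 46.7%) had the edge of a region within 2000 bp downstream of the TSS, and these regions had a median width of 4000 bp. Among genes flanked downstream only, 214 (13.2%, 11.6 to 15.0%) had such an edge upstream, with a median width of 2700 bp. The intervals do not overlap. Of the 8935 genes with neither a covered TSS nor a flanking region, 1254 (14.0%) had a region edge within 2000 bp. These included Pdx1, where an 11400 bp region ended 335 bp upstream of the TSS, and Neurod1, where a 5400 bp region ended 293 bp upstream. Both encode transcription factors of the β-cell.

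The gaps with a region on each side numbered 661 and held 1 gene in 567 cases, 2 genes in 92 and 3 in 2. Their number depended on the distance rule, with 79 gaps for midpoints within 1000 bp and 1675 for distance from the nearest edge. In 91 gaps (13.8%, 11.2 to 16.6%) the TSS lay on both strands. The median gap was 1400 bp wide (quartiles 1200 and 1600, range 200 to 3000 bp), and 65.8% were 1000 to 2000 bp wide. The uncovered stretch was not centred on the TSS. In the 570 gaps with TSS on 1 strand, the median distance from the upstream region to the most upstream TSS was 503.5 bp and from there to the downstream region 788 bp. The downstream part was the longer in 398 gaps (69.8%, 65.9 to 73.6%), and in 183 of the 272 gaps that held 1 TSS position (67.3%, 61.3 to 72.8%). The downstream region was the wider of the pair at 358 gaps (62.8%, 58.7 to 66.8%), the upstream region at 150 and neither at 62. Median widths were 1200 bp downstream and 800 bp upstream.

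**Figure D2:**
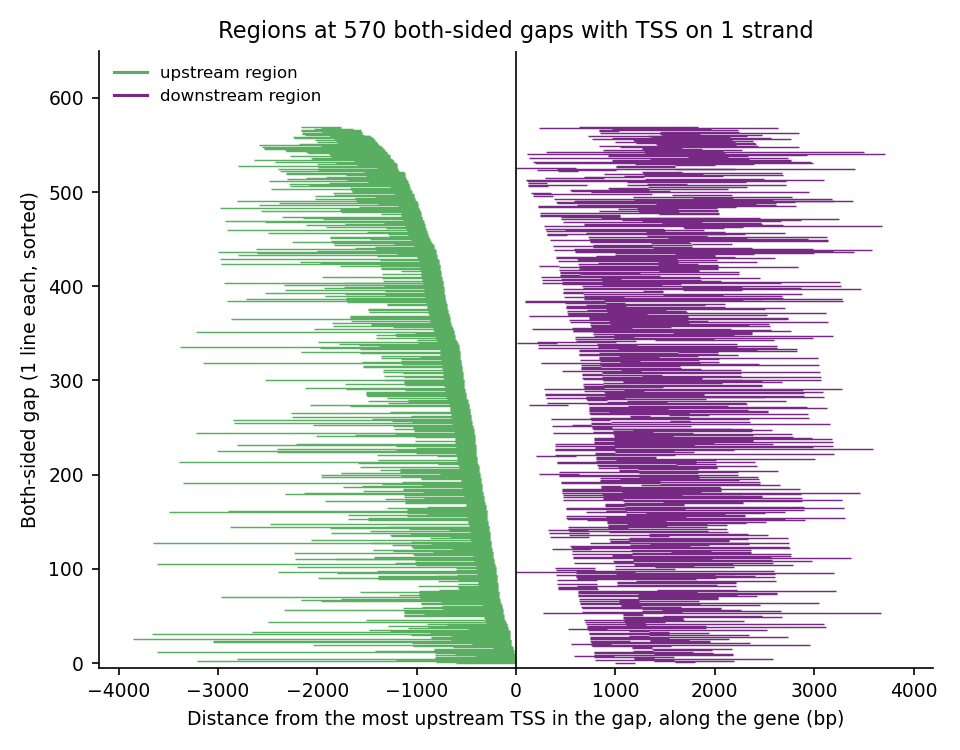
Regions at the 570 gaps that were flanked on both sides and held TSS on 1 strand, 1 line per gap, sorted by the distance from the upstream region to the TSS (x axis, distance from the most upstream TSS in the gap along the gene, bp). Green lines are upstream regions and purple lines downstream regions. The stretch without a region extends further to the right of the TSS (median 788 bp) than to the left (503.5 bp).

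The widest gaps of this kind were 3000 bp, at Ahnak (chr19:9072601-9075600), Atm (chr9:53343401-53346400), Rap2a (chr14:120876401-120879400) and Slc22a23 (chr13:34434601-34437600). Atm is the kinase that responds to DNA double-strand breaks and Ahnak is a very large scaffold protein. A gap of 2800 bp followed at 7 loci, of which Elf2 (chr3:51142801-51145600), an ETS-family factor, is first by name. The regions beside the 11 gaps of 2800 or 3000 bp were 400 to 1200 bp wide, which the midpoint rule partly fixes, since a wide gap leaves room for narrow flanks only. The widest upstream regions were 3800 bp, at Ptpn23, a phosphatase of endosomal sorting (chr9:110310801-110314600), and at Rps6kc1 (chr1:192634401-192638200), and the widest downstream regions were 3800 bp at the homeobox gene Dlx5 (chr6:6828201-6832000) and at Dnm2, which encodes a dynamin (chr9:21298401-21302200). Their edges were 87, 59, 68 and 14 bp from the TSS, and the rule admits a region of this width only with its edge within 100 bp. At 3600 bp there were 15 further regions, among them regions upstream of Asxl1, Flcn and Gpbp1 and downstream of 8030423F21Rik, Ccdc45 and Gm5464.

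The TSS flanked on both sides were mostly CpG-rich, a property the rule did not use. Of the 669 genes, 576 (86.1%, 83.2 to 88.6%) had a CpG-rich TSS, with a median CpG observed/expected ratio of 0.792 and a median GC content of 60.6%. The share was 71.0% (68.4 to 73.5%) for genes flanked upstream only, 66.4% (64.0 to 68.7%) for those flanked downstream only, 54.7% (53.6 to 55.7%) for covered genes, 17.3% (16.5 to 18.1%) for genes with neither and 41.7% for all genes. It was 25.6% (19.7 to 32.3%) for the 199 genes flanked at different TSS. For covered genes the TSS scored was a covered one, which can lie inside the gene. With every gene scored at its most upstream TSS, by the state of that TSS, the CpG-rich share was 89.1% (86.4 to 91.5%) of 615 flanked on both sides, 79.5% (77.5 to 81.3%) flanked upstream only, 69.5% (67.3 to 71.8%) flanked downstream only, 62.9% (61.7 to 64.0%) of 6934 covered, 21.2% with neither and 45.1% of all. At a stricter threshold, a ratio of 0.75 and a GC content of 55%, the share for TSS flanked on both sides was 57.5%. Where the flanked TSS was not the most upstream of its gene, the CpG-rich share was 69.6% of 92 genes flanked on both sides, 19% of 100 flanked upstream only and 46.4% of 235 flanked downstream only.

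Across all genes, the state of the most upstream TSS differed with its CpG content. Flanking on both sides rose from 0.0854% (0.0233 to 0.219%) of 4682 TSS with an observed/expected ratio under 0.2 to 8.87% (6.32 to 12.0%) of 417 TSS with a ratio over 1. Flanking upstream only rose from 1.81% to 26.4% over the same range. Coverage by a region was highest, at 51.1% (49.8 to 52.4%), for ratios of 0.6 to 0.8, against 50.2% (48.4 to 52.0%) for 0.4 to 0.6, and was 24.7% (20.6 to 29.1%) for ratios over 1. Flanking downstream only stayed between 11.2% and 12.3% at all ratios over 0.6.

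**Figure D3:**
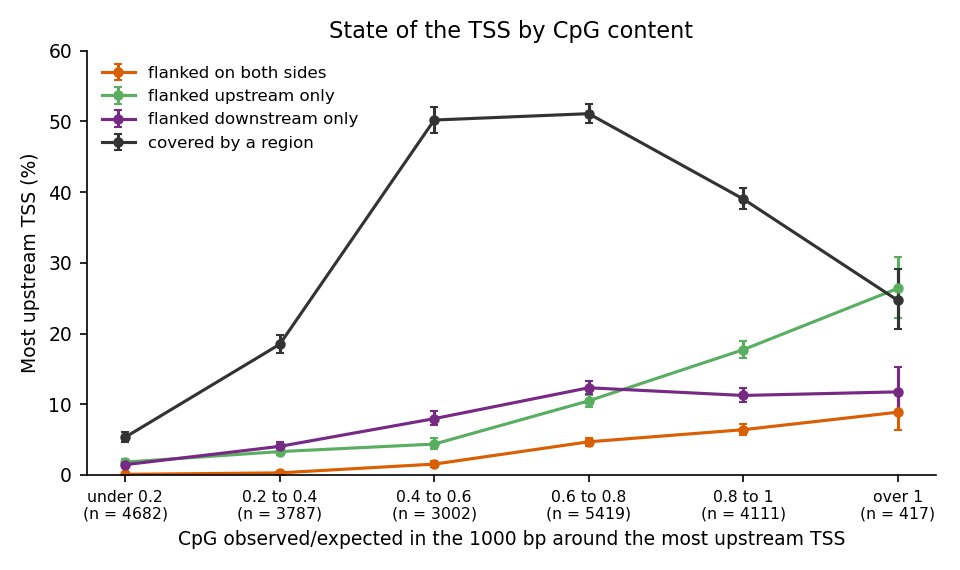
Share of most upstream TSS (y axis, %) that were flanked on both sides (orange), flanked upstream only (green), flanked downstream only (purple) or covered by a region (black), by CpG observed/expected ratio of the surrounding 1000 bp (x axis, number of genes below each label). Bars are 95% exact binomial intervals. The covered share falls from 51.1% at 0.6 to 0.8 to 24.7% over 1, where the share flanked upstream only reaches 26.4%.

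A dip between 2 peaks was seen around the CpG-rich TSS when coverage was averaged over the most upstream TSS of every protein-coding gene, whether or not the rule took a region there. Around the 9656 CpG-rich TSS, the share with a region was 47.6% (46.6 to 48.6%) at 400 bp upstream, 45% (44.0 to 46.0%) at 200 bp downstream and 53.9% (52.9 to 54.9%) at 1200 bp downstream. Around the 11762 other TSS it had 1 peak, of 22.1% at 200 bp downstream. The drop between the peaks at CpG-rich TSS was a few percentage points, in an average over covered, flanked and unmarked genes. The CpG-rich TSS include 548 flanked on both sides, 1388 upstream only and 1140 downstream only, which have no region at the TSS by the rule. No profile was made without them, so the dip is not separate from the choice of flanked TSS.

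**Figure D4:**
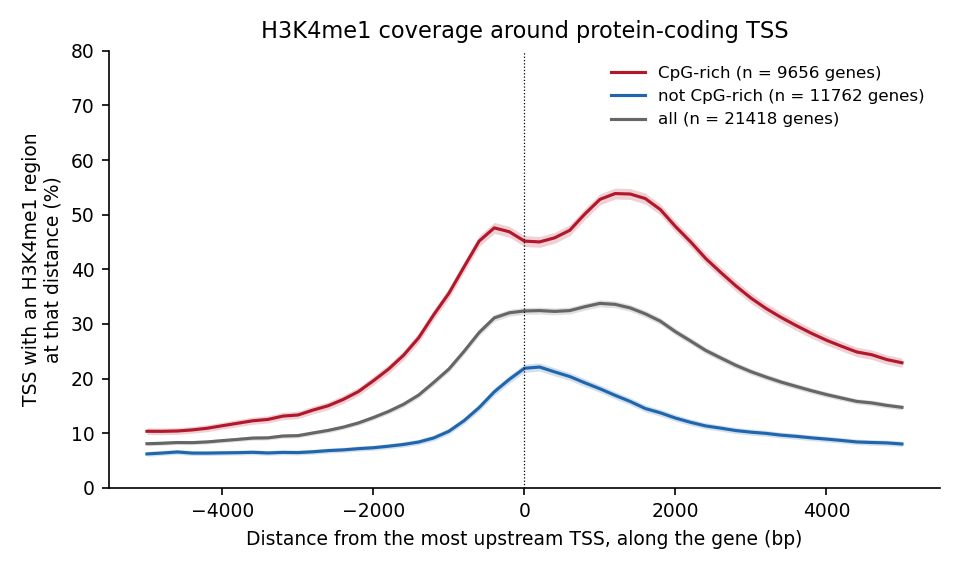
Share of TSS with an H3K4me1 region (y axis, %) at each distance from the most upstream TSS of a gene, along the gene (x axis, bp), for CpG-rich TSS (red), other TSS (blue) and all 21418 genes (grey). Bands are 95% exact binomial intervals. CpG-rich TSS have a peak on each side of the TSS, at 47.6% and 53.9%, and a dip to 45% between them, whereas other TSS have a single peak of 22.1%.

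Gaps between neighbouring regions were more often CpG-rich where they held a TSS. Of the 14005 gaps of up to 3000 bp between any neighbouring regions, 18.8% held a protein-coding TSS. Among gaps of 1200 to 1600 bp, 75% (72.3 to 77.5%) of the 1091 with a TSS were CpG-rich over their whole length, against 1.63% (1.26 to 2.08%) of the 3927 without. With a TSS the share was 61.5% (40.6 to 79.8%) of 26 gaps at 200 to 600 bp, 83.8% (79.9 to 87.2%) at 800 to 1000 bp, 68.8% (64.0 to 73.3%) at 1800 to 2200 bp and 50.3% (46.5 to 54.1%) of 694 gaps at 2400 to 3000 bp, where it was 0.397% without. TSS positions were also dense in these gaps, at 313 per Mb, against 158 per Mb of sequence covered by regions and 16.2 per Mb in the rest of the chromosomes.

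TSS flanked on both sides more often had a gene on the opposite strand starting nearby than covered TSS did, with intervals that did not overlap. The count includes any orientation of the pair. Both genes of a pair can be counted although they share 1 gap and its flanking regions, so these intervals are too narrow. Of the 661 gaps with a region on each side, 91 (13.8%) held TSS on both strands. A TSS of another protein-coding gene on the opposite strand lay within 1000 bp for 30.6% (27.2 to 34.3%) of these genes, 18.7% of genes flanked upstream only, 18.6% flanked downstream only, 11.5% (10.9 to 12.2%) of covered genes and 5.48% of genes with neither. Within CpG-rich TSS alone the shares were 33.2% (29.3 to 37.2%) for TSS flanked on both sides, 15.4% (14.4 to 16.4%) for covered TSS and 23.6% (21.5 to 25.8%) for TSS of genes with neither. At most upstream TSS the shares were 32.4% (28.7 to 36.2%) for those flanked on both sides and 13.2% (12.4 to 14.0%) for covered ones. An example is the pair Mrpl47 and Ndufb5, which encode a mitochondrial ribosomal protein and a subunit of respiratory complex I. Their TSS, on opposite strands, shared a gap of 800 bp (chr3:32635401-32636200) between a 1000 bp region inside Mrpl47 and a 3000 bp region inside Ndufb5. A region on either side of such a pair is upstream of 1 gene and downstream of the other.

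Short motifs around the TSS differed in frequency between the groups. Each was searched as exact letters on both strands from 250 bp before to 50 bp after the TSS, except TATAAA, which was searched on the gene's strand from 45 to 10 bp before it. CCGGAAG, the ETS core, was present at 24.8% (21.6 to 28.3%) of TSS flanked on both sides, 16.7% flanked upstream only, 18.7% flanked downstream only, 11.6% (10.9 to 12.3%) of covered genes and 10.3% of all genes. Among CpG-rich TSS alone it was present at 27.1% (23.5 to 30.9%) of those flanked on both sides, 23.9% (21.3 to 26.5%) flanked downstream only, an interval that overlaps the first, 20.7% (18.1 to 23.4%) flanked upstream only, 16.4% (15.4 to 17.5%) of covered and 18.8% of all. GGGCGG, the core of the Sp1 site, was present at 68.3% of TSS flanked on both sides against 54.6% of covered genes and 41.5% of all, but among CpG-rich TSS at 72.9% (69.1 to 76.5%) and 72.3% (71.0 to 73.6%). TATAAA was present at 3 of 669 TSS flanked on both sides (0.448%, 0.0926 to 1.30%) and 1.26% (1.04 to 1.52%) of covered genes, with intervals that overlap. It was present at 4.68% of genes with neither and 2.70% of all. CCAAT ranged from 35.5% of covered genes to 38.3% of genes with neither, apart from 30.2% (23.9 to 37.0%) of genes flanked at different TSS. GCATGCGC, the core of the NRF1 site, was present at 6.73% (4.95 to 8.90%) of TSS flanked on both sides, 3.64% of covered genes and 3.09% of all, but among CpG-rich TSS the intervals overlapped, at 7.47% (5.46 to 9.92%) and 5.26% (4.64 to 5.93%) with 5.91% of all. Scored at most upstream CpG-rich TSS, GCATGCGC was present at 8.39% (6.21 to 11%) of those flanked on both sides and 5.41% (4.76 to 6.13%) of covered ones, and CCGGAAG at 27.4% (23.7 to 31.3%) and 17.1% (16.0 to 18.3%). The intervals for GCATGCGC thus overlapped or not with the choice of TSS, and those for CCGGAAG did not overlap under either. A match of letters is not a bound site.

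Further regions in the neighbourhood were common. At least 1 region had its midpoint 2 to 20 kb from the TSS for 86.7% (84.8 to 88.5%) of genes flanked upstream only, 75% (71.6 to 78.3%) flanked on both sides, 72.1% (69.8 to 74.2%) flanked downstream only, 78.5% of covered genes and 44.3% of genes with neither. The midpoint rule partly fixes these shares. A region with its edge within 2000 bp of the TSS but its midpoint further away is counted here. Of genes flanked upstream only, 44.0% had a region edge left out by the rule on their other side, against 13.2% of genes flanked downstream only. The difference between these classes is thus not a separate result about the neighbourhood.

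Gene groups differed in how many members were flanked, and the counts are read against the 17.7% of all protein-coding genes that were flanked with no TSS covered, of which 3.12% on both sides, 6.05% upstream only and 7.55% downstream only. For genes with a CpG-rich TSS the share flanked was 29.4% (28.4 to 30.3%), and for other genes 9.29%, so the number of CpG-rich TSS is given with each list. Of genes with a CpG-rich TSS, 24 of 49 cytosolic and 20 of 54 mitochondrial ribosomal protein genes were flanked. The counts were 8 of 27 for complex I, 8 of 27 for the proteasome, 13 of 41 for Eif genes and 10 of 22 for mediator. They were 55 of 156 for zinc-finger, 5 of 7 for trithorax, 5 of 12 for polycomb and 7 of 12 for synthetase genes. The groups were chosen with earlier results of these data known, and no test was made over them.

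**Figure D5:**
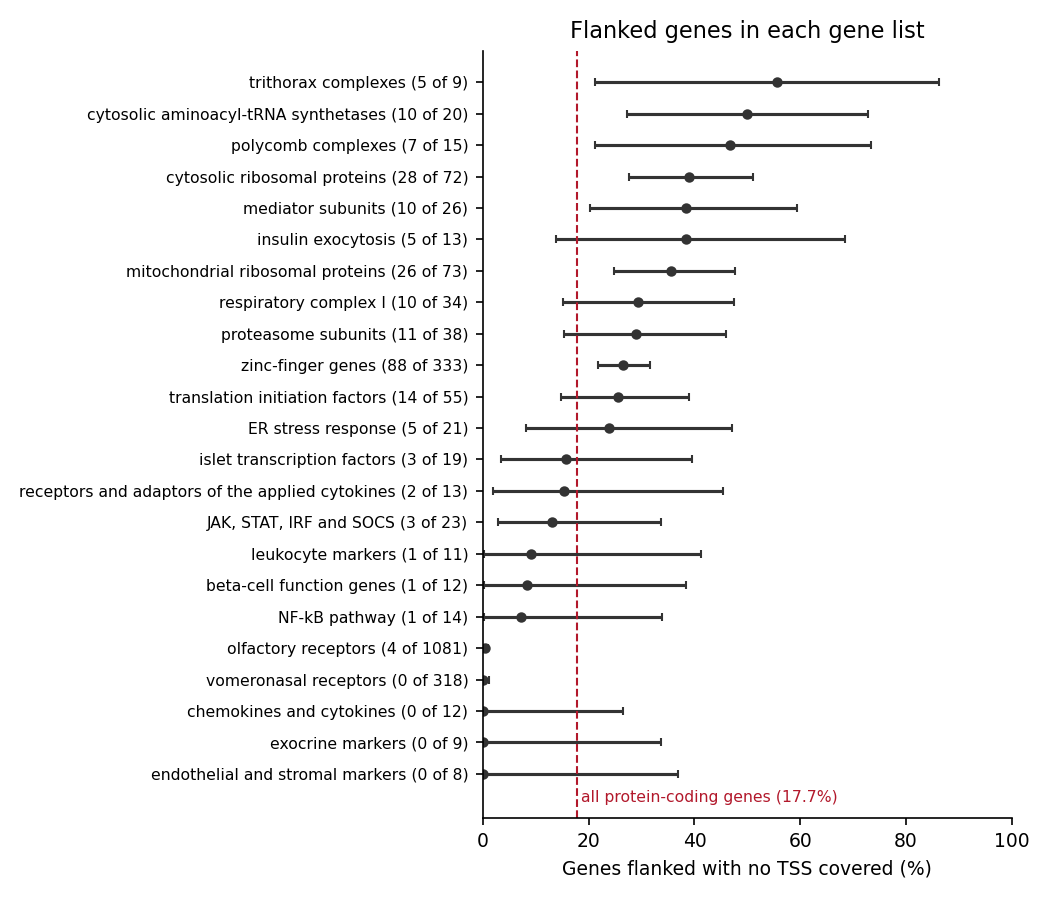
Share of genes in each list that were flanked with no TSS covered (x axis, %), with the number flanked and the list size beside the name. Points are shares, bars are 95% exact binomial intervals, and the dashed line marks the 17.7% of all protein-coding genes. Trithorax genes are highest at 55.6% and aminoacyl-tRNA synthetases follow at 50%, while 0 of 12 chemokine and cytokine genes were flanked. The line is not matched for CpG content, and 29.4% of genes with a CpG-rich TSS were flanked.

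Of the trithorax genes, most of whose products belong to H3K4 methyltransferase complexes, 5 of 9 (55.6%, 21.2 to 86.3%) were flanked, and 7 of the 9 had a CpG-rich TSS. Wdr5 and Ash2l, shared core subunits of the methyltransferase complexes, were flanked on both sides. At Ash2l (ENSMUSG00000031575.10, minus strand) the gap was 1800 bp (chr8:26950401-26952200) and lay at TSS inside the gene, not at its most upstream one. Dpy30, another core subunit, was flanked downstream by a 400 bp region 934 bp from a TSS inside the gene. Setd1b, a methyltransferase, was flanked downstream by a 3000 bp region 235 bp away, also at an internal TSS. Mll1, also a methyltransferase, was flanked upstream by an 800 bp region 1422 bp away and in addition had the edge of a 13000 bp region 1379 bp downstream. Rbbp5, the remaining core subunit, Setd1a and Kdm6b, an H3K27 demethylase, were covered. Mll3, a further methyltransferase, had no flanking region, but the edge of a 2400 bp region lay 1801 bp downstream. The list holds some of the MLL genes and not all. Wbp7, an MLL-family methyltransferase outside it (ENSMUSG00000006307.9, minus strand), named after its values were seen, was flanked on both sides of a gap of 1600 bp (chr7:31373001-31374600), by a 1400 bp region upstream and a 1000 bp region downstream. Mll2, also outside it, had an 800 bp region 1587 bp upstream of its most upstream TSS but was not among the genes flanked with no TSS covered. Setd7, an H3K4 monomethyltransferase outside these complexes, was flanked upstream by a 600 bp region 801 bp away and had the edge of an 8600 bp region 1600 bp downstream.

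Of the polycomb genes, whose products write H3K27 methylation and H2A ubiquitination, 7 of 15 (46.7%, 21.3 to 73.4%) were flanked, with 12 of 15 CpG-rich. None was flanked on both sides of 1 TSS. Ezh1, an H3K27 methyltransferase, its partner Suz12, and Ring1 and Cbx7 of the other complex were flanked downstream only, and Eed, the subunit that reads H3K27me3, upstream only. Ezh2 and Bmi1 were flanked at different TSS. Widths ran from 400 bp at Eed (908 bp from its TSS) and Suz12 to 1400 bp at Ezh1 and Bmi1.

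Of 72 cytosolic ribosomal protein genes 28 (38.9%, 27.6 to 51.1%) were flanked and 32 covered, with 49 CpG-rich, and 7 were flanked on both sides. Their gaps ran from 800 bp, at Rpl23, Rpl34 and Rps13, to 1400 bp, at Rpl31 and Rpl35. The gap of Rpl23 (chr11:97639201-97640000) lay at an internal TSS of low CpG content. Of 73 mitochondrial ribosomal protein genes 26 (35.6%, 24.7 to 47.7%) were flanked and 54 were CpG-rich. The narrowest gaps, 800 bp, were at Mrpl39, Mrpl43 and Mrpl47 and the widest, 2400 bp, at an internal TSS of Mrpl2. The Mrpl43 gap was shared with Peo1 and the Mrpl47 gap with Ndufb5, each on the opposite strand. Of 55 genes with the Eif symbol, most of them translation initiation factors, 14 (25.5%, 14.7 to 39.0%) were flanked and 41 were CpG-rich, with gaps from 1600 bp at Eif3d to 2600 bp at an internal TSS of Eif1. This list also holds Eif2c1 to Eif2c4, which encode Argonaute proteins, and Eif2c3 was flanked on both sides of a gap of 2400 bp.

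The aminoacyl-tRNA synthetases, which load amino acids onto tRNA, had 10 of 20 genes flanked (50%, 27.2 to 72.8%), with 12 of 20 CpG-rich. Farsb was flanked on both sides of a gap of 1200 bp (chr1:78485001-78486200), by a 200 bp region upstream and a 2400 bp region downstream. Farsa and Lars were flanked downstream only. The other 7, Hars, Iars, Kars, Rars, Sars, Tars and Yars, were flanked upstream only, and for 6 of them the edge of a region of 2600 to 6000 bp lay within 2000 bp downstream. Tars was the exception, at 2013 bp. The upstream regions of the 7 genes were 200 to 1000 bp wide.

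Respiratory complex I genes were flanked in 10 of 34 cases (29.4%, 15.1 to 47.5%; 27 CpG-rich), on both sides at Ndufs7 and Ndufb5 (gaps of 800 bp) and Ndufb3 (1400 bp). The Ndufb5 gap was shared with Mrpl47 and the Ndufb3 gap with Fam126b, each on the opposite strand. Proteasome subunit genes were flanked in 11 of 38 (28.9%, 15.4 to 45.9%; 27 CpG-rich), on both sides at Psmc5 (800 bp) and Psmc3 (1200 bp), which encode ATPases of the regulatory particle. The Psmc5 gap was shared with Ftsj3 on the opposite strand. Mediator subunit genes were flanked in 10 of 26 (38.5%, 20.2 to 59.4%; 22 CpG-rich), 6 of them downstream only and 4 upstream only. Zinc-finger genes were flanked in 88 of 333 (26.4%, 21.8 to 31.5%; 156 CpG-rich), with gaps from 600 bp at Zfp560 to 2000 bp at Zfp553.

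Of 19 islet transcription factor genes 3 (15.8%, 3.38 to 39.6%) were flanked and 10 covered, with 10 CpG-rich. Hhex, a homeobox factor of δ-cells, was flanked on both sides of an internal TSS (gap of 1400 bp, chr19:37510001-37511400). Nkx6-1, a homeobox factor of β-cells, had a 400 bp region 356 bp upstream of its TSS, and Insm1, a zinc-finger factor of endocrine cells, a 400 bp region 57 bp upstream. Of 12 β-cell function genes 6 were covered and 1, Ins1, was flanked (8.33%, 0.211 to 38.5%), with 3 of 12 CpG-rich. Its 600 bp region (chr19:52339801-52340400) began 988 bp downstream of the TSS and ran past the end of the gene at position 52339946. Of 13 genes of insulin exocytosis 5 were flanked (38.5%, 13.9 to 68.4%), with 7 CpG-rich. Nsf was flanked on both sides of a gap of 1200 bp (chr11:103814401-103815600), by a 200 bp region upstream and an 1800 bp region downstream. Napa, the partner of Nsf, and Exoc4, Rab27a and Unc13a, which act in vesicle tethering and priming, were flanked upstream only, and at all 4 the edge of a region of 5000 to 13000 bp lay within 2000 bp downstream.

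Of 14 NF-kB pathway genes 11 were covered and 1, Bcl10, was flanked with no TSS covered (7.14%, 0.181 to 33.9%), with 11 of 14 CpG-rich. Nfkb1, which encodes an NF-kB subunit and had another TSS covered, also had a TSS flanked on both sides of a gap of 800 bp (chr3:135271201-135272000). Of 13 receptors and adaptors of the applied cytokines 11 were covered, and Ifngr2, a chain of the IFNγ receptor, and Irak4, a kinase of IL-1 signalling, were flanked (15.4%, 1.92 to 45.4%), with 9 of 13 CpG-rich. Ifngr2 had a 200 bp region 517 bp upstream and the edge of a 3600 bp region 684 bp downstream, and Irak4 a 600 bp region downstream. Of 23 JAK, STAT, IRF and SOCS genes, 9 of them CpG-rich, 17 were covered and 3 flanked upstream only (13.0%, 2.78 to 33.6%): Irf2, a factor that competes with Irf1, Stat4, which signals from the IL-12 receptor, and Socs1, an inhibitor of JAK kinases. The region of Socs1 was 2600 bp wide and 372 bp from the TSS, with the edge of a 3600 bp region 1029 bp downstream. Irf2 had a 1400 bp region 899 bp away and Stat4, whose TSS was not CpG-rich, a 600 bp region 192 bp away. None of 12 chemokine and cytokine genes was flanked (upper bound 26.5%) and 7 were covered, but only 1 of the 12 had a CpG-rich TSS. Myc was flanked upstream only, by a 1200 bp region 946 bp from the TSS (chr15:61814801-61816000). Of 21 ER stress genes 5 were flanked (23.8%, 8.22 to 47.2%), with 13 CpG-rich. Atf4, the factor of the integrated stress response, the chaperone cofactors Dnajb9 and Dnajc3 and the ubiquitin ligase Syvn1 were flanked upstream only, and its adaptor Sel1l at different TSS. At Atf4, Dnajc3 and Syvn1 the edge of a region of 4200 to 11000 bp lay within 2000 bp downstream.

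Receptor genes of sensory neurons, largely silent in other tissues, served as a comparison. Of 1081 olfactory receptor genes 4 were flanked (0.370%, 0.101 to 0.945%) and 0 covered, and of 318 vomeronasal receptor genes 0 were flanked and 1 covered. No olfactory and 1 vomeronasal receptor TSS was CpG-rich.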

How the data were processed

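The data are H3K4me1 enriched regions from a single pooled library of cytokine treated islets. The authors mapped reads to mm9 with Bowtie2 2.2.1, per the submitters' processing notes, identified enriched regions with ChromHMM (version not given in the sources used here) and deposited the chromosome, start and end of each. The methods also filter merged loci on a low FPKM, and whether the deposited list precedes that step is not given in the sources used here. No region reached past a chromosome end of the reference, NCBIM37, the same build, and all lay on the 200 bp grid. Depth is unknown, and a missing region can reflect depth or the calling threshold.

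TSS were those of all transcripts of protein-coding genes in GENCODE M1, on chromosomes 1 to 19. The side of a region was read on the strand of its closest TSS. For the gene classes, a region counted for every TSS within 2000 bp of its midpoint, also where another gene's TSS was closer. A gene was covered if any TSS lay in a region, and otherwise took the class of its flanked TSS. CpG and motifs were computed from the reference. Exact intervals replaced tests, as there is 1 library. The classification was tested on simulated data, where 200 of 200 planted genes were recovered. The planted genes had a single TSS each, lay far apart and had narrow regions. Alternative TSS, neighbouring genes and wide regions were therefore not covered by this check. The members and gene lists were chosen with earlier results of these data known. Named genes were the flanked genes of lists of up to 25 genes, those with the narrowest and widest gap in longer lists, those at the 5 widest gaps and regions on each side, and genes the paper names. Eif2c3, Nfkb1, the shared gap of Mrpl47 with Ndufb5, and the covered or unflanked genes given as examples (among them Pdx1 and Neurod1) were named after their values were seen. Sytl4, Cxcl11, Kmt2a, Kmt2c, Adgre1 and Mars1 did not match a protein-coding gene on these chromosomes by that symbol. Python 3.11.15, pandas 2.3.3, scipy 1.17.1 and pysam 0.24.0 were used.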

Additional observations from a re-analysis of the deposited data

How the results depend on the processing

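With midpoints within 1000 bp in place of 2000 bp there were 2421 flanking regions, 79 gaps flanked on both sides and 1787 flanked genes, 58.4% of regions were upstream, and 78.9% of TSS flanked on both sides were CpG-rich. With distance from the nearest edge there were 8592 regions and 1675 such gaps with a median of 1600 bp, 38.8% of regions were upstream, and 89.0% of the TSS were CpG-rich. The upstream share was 44.2% without regions of 200 bp and 43.4% when a TSS within 200 bp of an edge counted as contained. The CpG-rich share was 89.3% with that tolerance, 89.3% with the most upstream TSS of each gene, 81.5% in a 300 bp window and 57.5% at the stricter threshold. The settings were varied for 6 results: the numbers of flanking regions, gaps and flanked genes, the upstream share, the median gap and the CpG-rich share. Other values of these results stayed within 1.5 times the reported count or inside the reported interval, including all 6 results with regions 1 bin apart merged or TSS of protein_coding transcripts alone. Edge distances, the position of the TSS in its gap, motifs, opposite-strand TSS and gene lists were not varied in this way. No paired analysis was possible because the design holds a single pooled library, and no replicate could be left out. The unknown depth limits every count of uncovered TSS.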

Other observations

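The share of flanking regions among all regions varied between chromosomes, from 6.70% on chromosome 18 to 11.3% on chromosome 11. The widths of gaps between neighbouring regions were uneven across the whole list, whether or not a gap held a TSS. Gaps of 1000 bp numbered 159, against 1871 of 800 bp and 1894 of 1200 bp, and gaps of 1800 and 2000 bp numbered 359 and 291, against 1270 of 1600 bp and 1441 of 2200 bp. The gaps flanked on both sides of a TSS followed the same steps, with 110 at 800 bp, 12 at 1000 bp and 186 at 1200 bp. Regions of a single 200 bp bin were 7.65% (6.98 to 8.37%) of flanking regions, 0.133% of regions covering a TSS and 2.93% of the remaining regions.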
